A study of Oidiodendron maius Zn with 6 samples.

Results

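Mycelium of the ericoid mycorrhizal fungus Oidiodendron maius Zn grown on peat was compared with mycelium of the same strain grown on glucose. The libraries compared were assigned by the labelled carbon source and made up 4 of the 6 libraries of the study, 2 from peat and 2 from glucose. Each condition had 1 library of paired reads and 1 of single reads, all of 75 bp on an Illumina MiSeq. The fungus grew without a plant host for 45 days on cellulose membranes over agar with modified Melin-Norkrans medium at pH 4.7. The peat plates were amended with about 10 g dry weight of peat, and the glucose plates with 1 g per L of glucose. The remaining 2 libraries came from plates with bovine serum albumin (BSA, a protein) at 0.1 g per L. The labels give 1 basal recipe for all plates, which lists an ammonium salt and glucose, and the glucose libraries carry the code NH4 in their titles. The sources used here do not say whether the peat plates also held glucose and ammonium, so kind of carbon, its amount and the nitrogen supply cannot be told apart.

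Ericoid mycorrhizal fungi live in the roots of plants of the heather family and also grow in acid, peaty soil without a host. Peat is partly decayed plant matter, rich in cell wall polysaccharides and phenolic compounds, with much of its nitrogen bound in organic form. Fungi obtain carbon and nitrogen from such material with secreted hydrolases, oxidases and peptidases and with uptake systems for the released sugars, peptides and amino acids. Glucose, by contrast, enters the cell without prior digestion. Which of the gene models below belong to these systems is not known here, because the files hold only JGI protein IDs of the Oidma1 annotation, with no gene names, products or sequences. The models are therefore described by their levels.

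Gene reads numbered 1043870 for peat and 969553 for glucose in the paired-read libraries, and 24690601 for peat and 22021177 for glucose in the single-read libraries. The paired-read and single-read libraries of a condition were compared first, by their unique gene reads. Their deviations had a chi-square per degree of freedom of 1.83 for peat and 1.75 for glucose, where sampling alone gives 1, so the layouts differed beyond sampling noise. A layout effect common to all conditions was then removed. The value over the peat, glucose and BSA libraries together was 1.06 (10373 models), little more than sampling noise. Exchanging the single-read libraries of peat and glucose gave 26.0 (10404 models), also with BSA included. Each pair of libraries therefore counted as 1 sample, so n = 1 for peat and for glucose, and no difference below has a replicate check. Intervals are exact (Clopper-Pearson) 95% intervals and cover counting error only.

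Most of the transcriptome had similar levels on peat and on glucose, and a small set of models differed greatly. Levels are given in CPM, the depth-scaled read count, after TMM scaling, which corrects for differences in composition between libraries. Of the 8492 models that averaged 20 CPM or more on peat or on glucose, 93.2% lay within 2-fold and 77.1% within 1.5-fold. Differences of 4-fold or more were seen in 68 models that were higher in peat (0.801% of the 8492) and in 64 that were lower (0.754%). At the 8-fold limit there were 33 higher (0.389%) and 26 lower (0.306%). At the 16-fold limit there were 24 higher (0.283%) and 15 lower (0.177%), and at the 32-fold limit 15 higher (0.177%) and 8 lower (0.0942%). Past 100-fold there were 9 models higher (0.106%) and 6 lower (0.0707%).

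**Figure D1:**
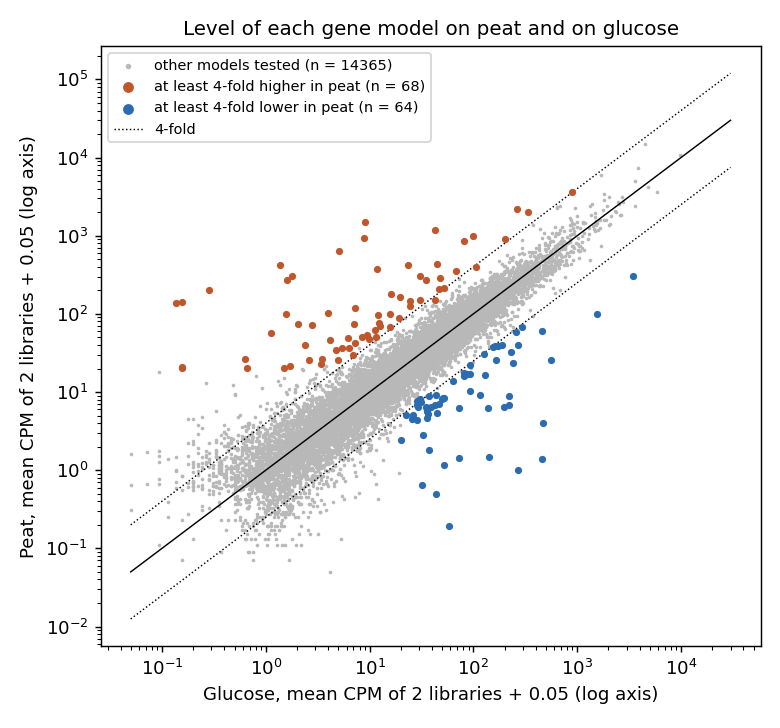
Mean CPM on peat (vertical axis) against mean CPM on glucose (horizontal axis) for the 14497 models tested, both on log axes after adding 0.05. The 68 higher and the 64 lower models were chosen by the fitted fold change, not by these means. Most of them lie outside the dotted 4-fold lines. Some lie just inside, such as protein ID 103427 with 152 CPM on peat and 42.9 on glucose. Most other points lie near the line of equal levels.

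**Figure D2:**
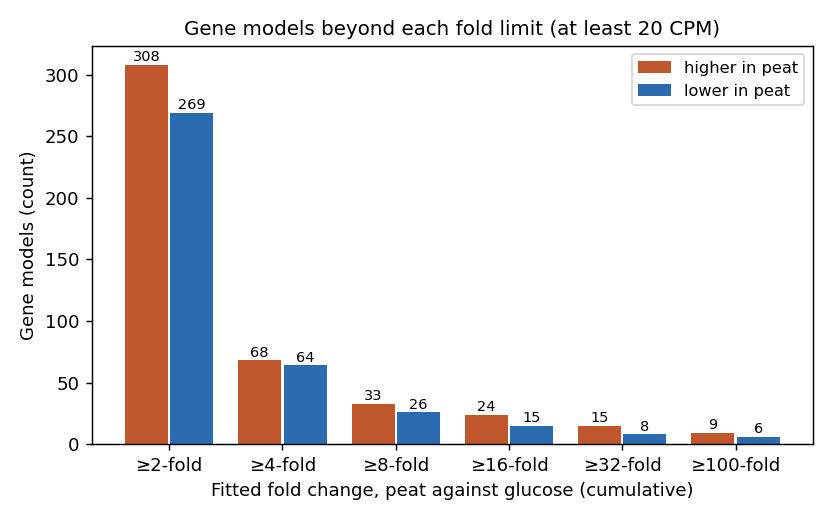
Number of gene models beyond each fold limit, higher and lower in peat than in glucose, among models that reached 20 CPM in the higher condition. The counts are 308 and 269 at 2-fold and 9 and 6 at 100-fold.

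The edgeR quasi-likelihood test called 9006 of 14497 models at an adjusted p under 0.05 (62.1%), 4437 higher (30.6%) and 4569 lower in peat (31.5%). This test compares libraries that hold 1 sample each, and its error is sequencing noise, so a call does not separate the carbon source from a difference between single cultures. The calls were mostly small differences, with 82.0% under 2-fold and a median absolute log2 fold change of 0.52. All 132 models beyond 4-fold were among the calls. The same fit gave both, so this was nearly fixed in advance and is no separate result. Without the peat single-read library the test called 2654 models, and without the glucose single-read library 2626. DESeq2 called 3353. With edgeR, 40.9% of calls were higher in peat under total count scaling, 49.3% under TMM and 50.5% under RLE size factors. With DESeq2, which also differs in its test, the share was 54.5%. Models at least 2-fold lower in peat numbered 269 (3.17%), and 427 without the peat single-read library and also 427 without the glucose single-read library. Models at least 2-fold higher numbered 308 (3.63%), and 418 and 445 without those libraries in turn.

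The 132 models stood apart in every library. For all 68 higher models, both peat libraries lay above both glucose libraries, and for all 64 lower models both peat libraries lay below both glucose libraries. Selection by fold largely fixes this. Taken by layout, 65 of the 68 higher models were at least 4-fold higher in the paired-read libraries alone and 67 in the single-read libraries alone. Of the 64 lower models, 56 were at least 4-fold lower in the paired-read libraries and 62 in the single-read libraries. Reads that match more than 1 model had almost no part in these values. In 131 of the 132 models, 0 reads of the peat and glucose libraries were shared with another model, and in protein ID 105110 shared reads made up 0.00271% of the peat reads.

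Together the higher models took a much larger share of the peat libraries than of the glucose libraries. They held 2.11% of the peat paired-read library and 2.36% of the peat single-read library, against 0.253% and 0.332% of the glucose paired-read and single-read libraries. The lower models held 0.127% and 0.128% of the peat paired-read and single-read libraries, against 1.29% and 1.34% of the glucose libraries. These shares describe the models chosen for their fold and are no separate result. In the BSA libraries the same higher models held 1.55% and 2.19%, and the same lower models 1.04% and 1.03%. A large part of the BSA share of the higher models, and the gap between the BSA libraries, came from protein ID 46664. It had 4070 of the 893061 gene reads in the BSA paired-read library and 225225 of 20008329 in the single-read library. On peat it had 2305 of 1043870 and 123116 of 24690601. The BSA shares therefore do not describe the higher models as a set.

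**Figure D3:**
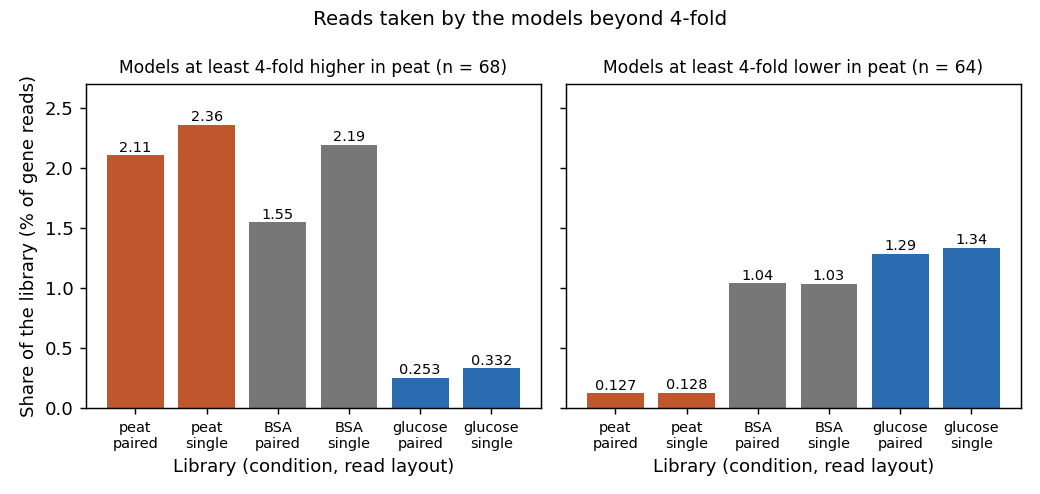
Share of gene reads (% of the library) taken by the 68 models beyond 4-fold that were higher in peat (left) and the 64 that were lower (right), 1 bar per library. The higher models hold 2.11% and 2.36% of the peat libraries and 0.253% and 0.332% of the glucose libraries.

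The share of models beyond 4-fold varied with the level in the higher condition. Of the 101 models that reached 1000 CPM in the higher condition, 5 passed the limit as higher and 2 as lower in peat, which together made 6.93%. That share was 3.31% of the 181 models from 500 to 1000 CPM, 1.90% of the 2427 from 100 to 500 CPM, 1.13% of the 2575 from 50 to 100 CPM and 1.37% of the 3208 from 20 to 50 CPM. The 2 upper classes rest on 7 and 6 such models. Each model was placed by the higher of its peat and glucose means, so a large change itself moves a model into a higher class. These shares therefore do not show that abundant models changed more often.

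Protein ID 46664 (411 nt) had the largest gain in CPM among the higher models. It had 2217 CPM in the peat paired-read library and 4970 in the peat single-read library, against 545 and 1237 CPM in those of glucose. The single-read libraries gave 2.24 times the CPM of the paired-read libraries for peat and 2.27 times for glucose, so its level depended on the read layout while both peat values lay above both glucose values. Within a layout the fold was nearly the same, 4.07-fold higher in peat for paired reads (3.70 to 4.47) and 4.02-fold for single reads (3.97 to 4.07). The model sat at the 4-fold limit, with a fitted log2 fold change of 2.02, and it was just below that limit at 1.98 without the layout block, 1.94 with total count scaling and 1.95 without the glucose single-read library. Summed reads that mix the layouts gave 1.83-fold without the peat single-read library and 8.91-fold without that of glucose. By RPKM, which divides by gene model length, it ranked 8 on peat and 30 on glucose.

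Protein ID 196581 (2902 nt) followed, with 2215 and 2129 CPM in the peat paired-read and single-read libraries, against 247 and 277 CPM in the glucose libraries. The layouts gave similar values. The conditions did not overlap, which the choice by fold largely fixes. Over both layouts it was 7.75-fold higher in peat (7.55 to 7.95). Its RPKM rank was 103 on peat and 1925 on glucose.

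The 3 other higher models with at least 1000 CPM on peat were picked out with their values known. Protein ID 139563, a model of only 153 nt, had 2105 and 1882 CPM on peat, against 353 and 321 on glucose, 5.87-fold higher in peat (5.74 to 6.02). By RPKM it ranked 3 on peat and 29 on glucose. Protein ID 105110 (778 nt) had 1535 and 1426 CPM on peat, against 6.94 and 10.9 on glucose. With 36909 reads on peat and 261 on glucose, it was 133-fold higher in peat (118 to 151). Without the glucose single-read library, which left 7 glucose reads, the ratio was 206 (100.0 to 513). Protein ID 20513 (1801 nt) had 1233 and 1153 CPM on peat, against 46.6 and 39.0 on glucose, 29.4-fold higher in peat (27.6 to 31.4).

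Among the lower models, protein ID 22366 (645 nt) had the largest loss in CPM. It had 301 and 318 CPM in the peat paired-read and single-read libraries, against 3279 and 3668 CPM in the glucose libraries. It was one of the most abundant transcripts of glucose-grown mycelium, with RPKM rank 3 on glucose and 225 on peat. Over both layouts it was 11.5-fold lower in peat (11.2 to 11.8).

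Protein ID 169145 (1172 nt) had 96.2 and 106 CPM on peat, against 1583 and 1512 on glucose, 14.4-fold lower in peat (13.8 to 14.9). Its RPKM rank was 1866 on peat and 51 on glucose. The other lower model with at least 500 CPM on glucose, protein ID 180310 (1525 nt), picked out with its values known, had 25.0 and 26.8 CPM on peat, against 584 and 536 on glucose. It was 20.1-fold lower in peat (18.7 to 21.8). For all 3 models the layouts agreed far more closely than the conditions, which their choice by fold largely fixes.

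**Figure D4:**
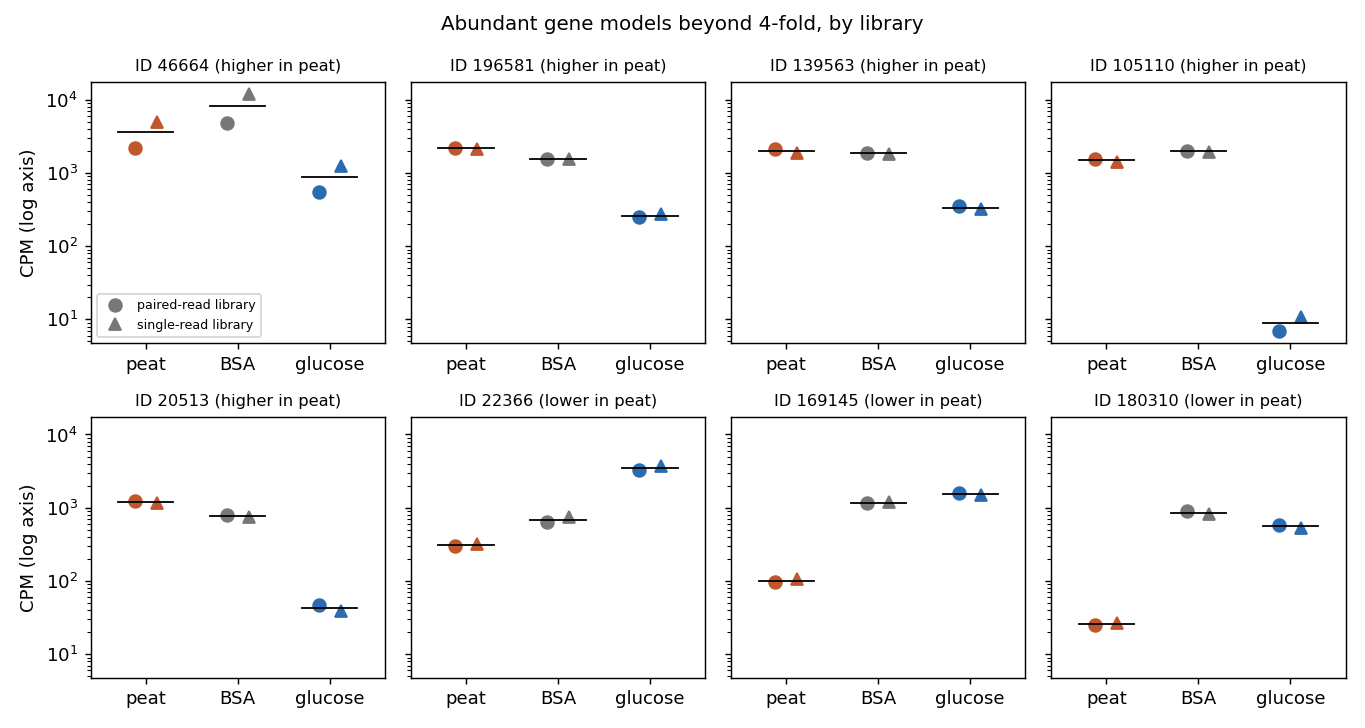
CPM (log axis) in each library for the 5 higher models with at least 1000 CPM on peat and the 3 lower models with at least 500 CPM on glucose, with BSA beside them. Circles are paired-read libraries, triangles single-read libraries and bars the mean of both. In each panel both peat points lie on the same side of both glucose points, which selection by fold largely fixes. ID 46664 alone of these models has single-read values more than 2-fold above paired-read values in peat and in glucose.

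The levels of these models on BSA did not follow one pattern. On BSA the 5 higher models averaged 8324 CPM (46664), 1551 (196581), 1860 (139563), 1966 (105110) and 768 (20513). For 46664 and 105110 these BSA means were above those of peat. The 3 lower models averaged 684 CPM (22366), 1168 (169145) and 859 (180310) on BSA. For 22366 that was much nearer the peat mean of 309.8 CPM than the glucose mean of 3473, and for 180310 it was above both. Over all 68 higher models the median level was 100.3 CPM on peat and 8.86 on glucose, and it was 53.2 on BSA. Over the 64 lower models the median was 7.52 CPM on peat and 72.5 on glucose, and it was 63.6 on BSA. The selection used the peat and glucose values, so only the BSA medians are outside it. Over all 8492 models with at least 20 CPM the median BSA level was 57.8 CPM and the lower quartile 31.6. Of the 68 higher models, 40 had a BSA level between peat and glucose, 9 above both and 19 below both. Of the 64 lower models, 36 lay between, 26 above both and 2 below both. Selection for a gap of at least 4-fold leaves a wide range between peat and glucose, and the shares over all models were not counted. These counts are therefore no separate result. A BSA level under 5 CPM was found for 14 of the 68 higher and 0 of the 64 lower models. Its share over all models was not counted either, so it is not read as particular to either list. The lower quartile of the BSA level was 10.1 CPM for the higher and 24.3 CPM for the lower models, beside 31.6 CPM for all 8492.

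A number of models beyond 4-fold were close to silent in one condition. A model with at least 20 CPM in one condition and under 5 CPM in the other meets the 4-fold rule almost by definition. The counts here follow from that selection and are no separate result. Of the 68 higher models, 24 had a mean under 5 CPM on glucose and 7 under 1 CPM. Of the 64 lower models, 15 had a mean under 5 CPM on peat and 4 under 1 CPM. Those 4, picked out with their values known, have the protein IDs 20072, 20079, 55538 and 56788. Protein ID 56788 (744 nt) was the most abundant of them on glucose. It had 0 and 1.94 CPM in the peat paired-read and single-read libraries, against 261 and 275 in the glucose libraries, and was 148-fold lower in peat (111 to 200.4). With that single-read peat library left out, 0 peat reads remained and the model was at least 95.1-fold lower.

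Among models with at least 10 reads in one condition, complete absence in the other was rare and limited to models with few reads. Of the 16703 models in the files, 8 had at least 10 reads on peat and 0 on glucose, and 6 had at least 10 reads on glucose and 0 on peat. The one with the most reads of each kind was named after its values were seen. Protein ID 110650 had 55 reads on peat and 0 on glucose, so it was at least 17.2-fold higher in peat when 3 reads are allowed for a count of 0. That bound was 0.716 without the glucose single-read library, and no difference could then be stated. It was 7.78-fold without the peat single-read library, from 1 read. Protein ID 35134 had 0 reads on peat and 102 on glucose, at least 36.2-fold lower in peat, and the bound was 1.46-fold without the peat single-read library. With no limit on the reads, 655 models had 0 reads on peat and 572 had 0 on glucose. These include 394 models with 0 reads in all 4 libraries, which at this depth does not show that they are unexpressed.

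The most abundant transcripts were largely shared. Ranked by mean RPKM, 76 of the 100 highest models on peat were also among the 100 highest on glucose, and 424 of the 500 highest. Of the 10 highest, 5 were the same. Of the 68 higher models, 6 were among the 100 highest on peat, and 2 among the 100 highest on glucose. Of the 64 lower models, 0 were among the 100 highest on peat, and 2 among the 100 highest on glucose. The choice by fold shapes these counts of higher and lower models, so they are no separate result. The model ranked first was protein ID 208821 on peat and protein ID 19281 on glucose, both named after their values were seen.

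Models beyond 4-fold lay side by side in the numeric order of the protein IDs in 7 places, a pattern noticed after the values were seen. Of the 68 higher models, 19 had a tested model with an adjacent ID that was also at least 4-fold higher, in 5 runs. Of the 64 lower models, 6 did so for lower, in 2 runs. The lists held 68 and 64 of the 14497 models tested, and no expected number of runs was computed. The longest run held 10 higher models, from 20506 to 20533, and took 0.392% and 0.397% of the peat paired-read and single-read libraries, against 0.0142% and 0.0141% of the glucose libraries. The next tested ID below the run, 20504, had a log2 fold change of 1.58 and the next above it, 20535, of 0.02, while the lowest within it was 3.40. Within the run the mean level went from 20.3 to 1193 CPM on peat, against 0.0860 to 81.9 CPM on glucose. On BSA its members had 10.2 to 768 CPM and took 0.248% and 0.234% of the paired-read and single-read libraries.

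The run of 4 lower models from 20072 to 20079, with log2 fold changes of -7.60 to -5.64, lay between 20069 at -0.30 and 20080 at -0.88. Its members had 0.141 to 3.92 CPM on peat, against 43.3 to 471 CPM on glucose. On BSA they had 66.3 to 595 CPM. The second-longest higher run held 3 models from 172600 to 172609, with 26.0 to 304 CPM on peat, against 1.74 to 11.3 CPM on glucose. The log2 fold change was 2.07 for 172600 and 2.04 for 172605, both just past the 4-fold limit, and 7.58 for 172609. On BSA the 3 models had 0.185 to 17.8 CPM. The other runs were pairs, namely 43476 and 43477, 130385 and 130387, and 169479 and 169483 among the higher models, and 21636 and 21637 among the lower. The sources used here do not say whether IDs close in number belong to neighbouring genes.

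**Figure D5:**
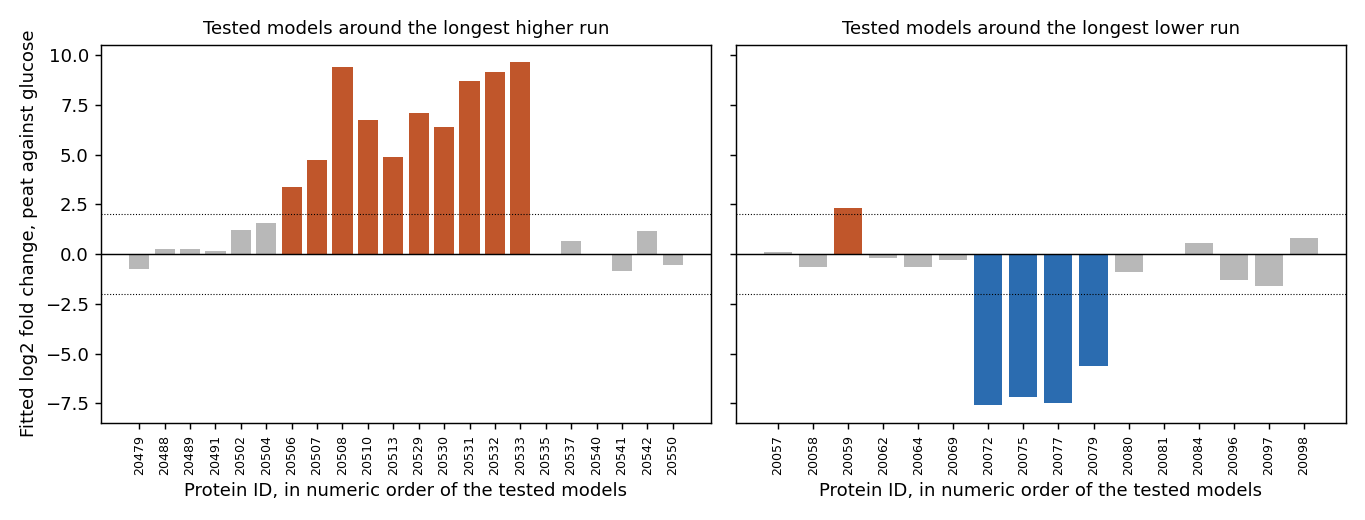
Fitted log2 fold change of peat against glucose for the tested models around the longest higher run (left) and the longest lower run (right), 1 bar per model in numeric order of the protein ID, with dotted lines at 4-fold. The 10 models from 20506 to 20533 and the 4 from 20072 to 20079 have their nearest tested neighbours on both sides inside the 4-fold lines.

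The fold changes ran with the length of the gene model. Over the models tested, the median log2 fold change of peat against glucose was -0.29 for models of up to 500 nt (1063 models), -0.28 from 500 to 1000 nt (4063), -0.08 from 1000 to 1500 nt (3698), 0.09 from 1500 to 2000 nt (2866), 0.23 from 2000 to 3000 nt (1833) and 0.41 over 3000 nt (974). Both layouts showed it. For models over 3000 nt, the median on the log2(CPM + 1) scale was 0.42 in the paired-read libraries and 0.39 in the single-read libraries. The 4-fold models were not confined to one length. Their median was 1334 nt for the higher and 1127 nt for the lower ones, beside 1440 nt for all models with at least 20 CPM. With the length trend removed, 66 models lay beyond 4-fold as higher and 63 as lower in peat. Of these, 60 and 59 were among the reported 68 higher and 64 lower models. Beyond 2-fold there were then 257 higher and 233 lower models, and the edgeR test called 8220.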

How the data were processed

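Each of the 6 libraries had a deposited table of 16703 gene models with whole-number counts of unique and of total gene reads and RPKM values, per the file headers. The counts were deposited unnormalized. The RPKM was scaled by the authors to the total gene reads of the file, since total reads divided by RPKM gave whole-number lengths in all 90022 nonzero values (tolerance 0.01 nt). The sources used here do not name the trimming, aligner, counter or library kit.

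Total gene reads of all 6 libraries were fitted with edgeR 4.0.16 (R 4.3.3, limma 3.58.1), with TMM factors, filterByExpr by condition, terms for condition and read layout (2 residual degrees of freedom), the quasi-likelihood test and Benjamini-Hochberg adjustment over 14497 models. The test was checked on simulated counts. A model counted as beyond 4-fold had a fitted log2 fold change of at least 2 in size and at least 20 CPM in the higher condition. Folds of single models are ratios of normalised reads summed over both layouts, with 3 reads for a count of 0. Because the labels do not say whether libraries came from separate cultures, p-values measure only the spread between libraries.

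The comparison, rules and lists were chosen with earlier results of these data known. Of 25 gene lists defined by product words, 0 could be filled without gene names. Models named by rule are the 2 higher and 2 lower ones with the largest difference in mean CPM among those beyond 4-fold (46664, 196581, 22366 and 169145). Alternatives were no layout block, RLE size factors, total count scaling, DESeq2 1.42.0, limma-voom, 2 other filters, the 4 libraries alone, unique reads, length trend removed, thinning, and each library left out. The CPM limits of 5 and 50 and the 2-fold and 8-fold counts were added after the data were seen.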

Additional observations from a re-analysis of the deposited data

Results flagged for a closer look

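Reads that match more than 1 gene model are part of the total gene reads that were fitted, but their own share was not among the comparisons. It was above that of the glucose libraries. They made up 0.505% of the peat paired-read library and 0.894% of the peat single-read library, against 0.164% and 0.309% of the glucose paired-read and single-read libraries. In the BSA libraries they made up 1.07% and 2.09%, above peat. Taking the 4 models that had most of these reads in glucose, they held 93.8% and 93.6% of them in the peat libraries, against 84.5% and 81.0% in the glucose libraries. None of the 132 models beyond 4-fold had over 1% of shared reads in peat or in glucose.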

How the results depend on the processing

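The counts of models beyond 4-fold hardly moved under most settings, many of which refit the same libraries. Requiring at least 10 reads in every library, which removes models that are low in one condition, left 25 higher and 26 lower models beyond 4-fold, and 7 higher and 7 lower beyond 8-fold (33 and 26 in the reported fit). A limit of 5 CPM gave 104 higher and 102 lower, and a limit of 50 CPM gave 39 lower. Leaving out 1 library gave 66 to 79 higher and 62 to 79 lower models beyond 4-fold, of which at least 61 and 56 were among the reported 68 and 64. Models at least 2-fold higher numbered 305 to 445 and those at least 2-fold lower 259 to 427, with the highest counts without a single-read library. The edgeR calls (9006) numbered 3568 with thinned single-read libraries and 2626 to 8828 without 1 library, and DESeq2 called 3353. The cause of the DESeq2 difference was not tested. The percent of calls higher in peat (49.3%) was 54.5% with DESeq2, 50.5% with RLE size factors, 40.9% with total count scaling and 47.8% with the length trend removed, and 49.0 to 53.5% without 1 library. Total count scaling moved the median log2 fold change of all models to -0.09, from -0.02 with TMM. The 4 models named by rule kept their direction in all settings, which their choice by fold nearly fixes.

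The labels give no replicate numbers. The replicate block of the fit was the read layout, which paired the libraries across conditions, and without it 6040 models were called. With 1 sample per condition, the spread between cultures is unknown. Folds of models with few reads in one condition rested on the deep single-read libraries. A count of 0 allowed up to 2.89 CPM in the peat and 2.97 CPM in the glucose paired-read library, and 0.121 and 0.129 CPM in the single-read libraries.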
